A study of Rattus norvegicus with 71 samples.

Results

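Mesenteric arteries of 6-month-old rats were compared between Fischer344 × Brown Norway (FBN) animals and Brown Norway (BN) animals. The arrays were chosen by their labels, mesenteric artery at 6 months, and they numbered 12 of the 71 in the series, 6 FBN and 6 BN. The series as a whole holds aorta, which some labels call thoracic artery, and mesenteric artery of both strains at 6, 15 and 24 months. BN is an inbred strain, and FBN is a cross of the Fischer strain with BN, so that FBN rats carry part of the BN genome. The labels name no drug, diet or altered gene for either group. One protocol text, the same for all arrays, cites a rat model in which collateral arteries form after a neighbouring artery is occluded, without saying which vessels came from it. They also do not say whether each array is a separate rat or whether a rat gave both vessels, so p-values measure only the spread between these arrays.

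Mesenteric arteries are small muscular arteries that carry blood to the gut and help set vascular resistance. Their wall holds contractile smooth muscle, an inner endothelium and an outer adventitia of fibroblasts and matrix, and they run in mesenteric fat, which is hard to strip off completely. BN and FBN rats are both long-lived and much used in studies of ageing, and in such crosses a gene can differ between strains through inherited sequence as well as through the state of the tissue. Each array gave a MAS5 signal per probe set, a linear brightness measure of hybridised RNA, for short probes near the 3′ end of a transcript. Differences are given as FBN minus BN on the log2 scale ± standard error, so that 1 unit is a doubling, and signals are compared only within a probe set. A probe set is said to be called, higher or lower where limma's two-sided moderated test had an adjusted p under 0.05 over 16717 tested probe sets. In tissue arrays fewer cells of a type and less RNA per cell cannot be told apart, and the number of arrays limits the precision of every value.

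The tissue label was checked against marker genes. All 18 contractile smooth muscle markers on the array passed the filter on low signals, with a summed signal of 457000 to 647000 in FBN and 390000 to 539000 in BN. Of the markers on the array 13 of 13 endothelial and 12 of 13 white adipocyte ones passed it, while 2 of 15 T and NK cell markers and 0 of 5 neutrophil markers did. With no detection calls used, passing the filter does not show that a gene is expressed.

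The groups differed in their spike-in controls, which are bacterial RNAs with a poly-A tail added to the sample before labelling. The mean log2 signal of the 27 poly-A spike-in probe sets was 10.55 ± 0.925 in FBN and 8.79 ± 0.622 in BN (SD, n = 6 each). The lowest FBN array, at 9.78, lay above the highest BN array, at 9.36, and the exact two-sided permutation p was 0.00216, the smallest that 924 assignments can give (adjusted 0.013 over 6 quality measures). Leaving out an array cannot make separate ranges overlap, so their separation was not tested in that way. The adjusted exact permutation p was 0.0519 without BN array 1 or BN array 5. FBN arrays 2 and 4 had the highest spike-in signals, 11.77 and 11.58, and the smallest tissue pieces, 5.3 and 5.8 mg. Tissue mass did not separate the groups, at 8.62 ± 2.78 mg in FBN and 8.63 ± 1.92 mg in BN, and neither did hybridization controls, added after labelling, at 12.70 and 12.44 (adjusted exact permutation p = 0.252). FBN array 2 also had the highest ratio of 3′ to 5′ signal for Gapdh, 1.91 on the log2 scale against 0.24 to 1.19 in the other 11 arrays, and the lowest correlation with the rest of its group, 0.9403. The part of these array differences in the gene results was not tested directly. Results are therefore given with all 12 arrays and, where it matters, without FBN arrays 2 and 4 and with the spike-in signal as a covariate. The groups do not overlap in that covariate, so it and strain cannot be fully told apart. The covariate was fitted over all 36 mesenteric arrays with 6 group means. Its slope therefore came from the spread within groups of all 3 ages, not from these 12 arrays alone.

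**Figure D1:**
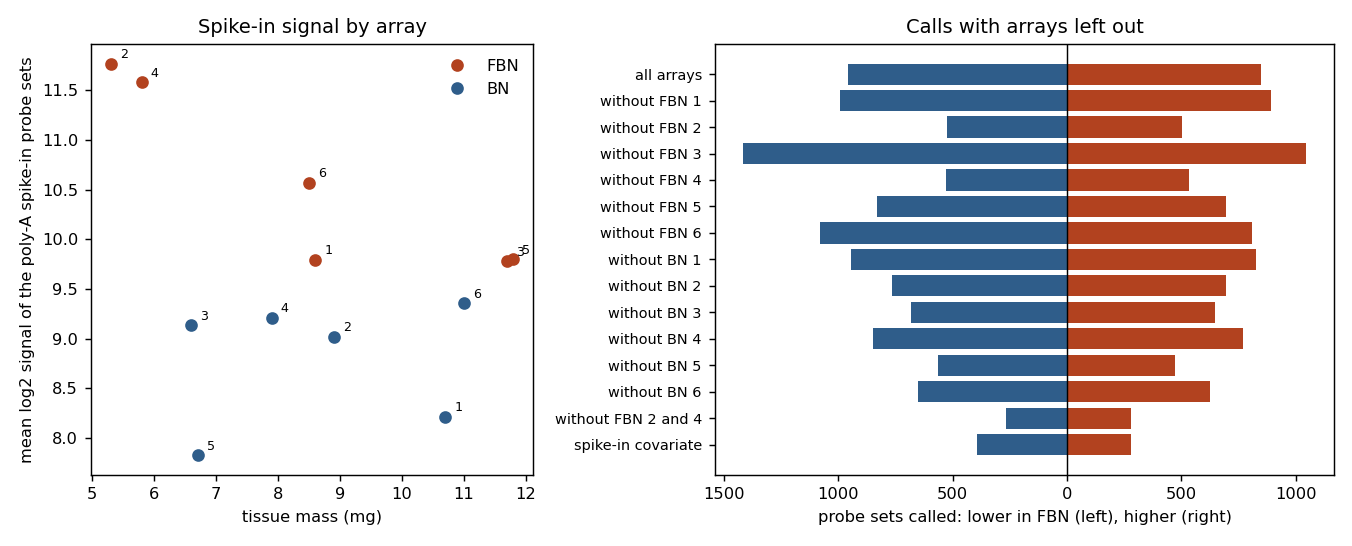
Left, mean log2 signal of the poly-A spike-in probe sets (y axis) against labelled tissue mass in mg (x axis) for the 12 arrays, with array numbers; all 6 FBN arrays lie above all 6 BN arrays, and FBN 2 and 4 are lightest and highest. Right, numbers of probe sets called higher and lower in FBN with all arrays, without each array in turn, without FBN 2 and 4, and with the spike-in signal as a covariate; the total falls from 1804 with all arrays to 543 without FBN 2 and 4.

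Many genes differed between the strains in young mesenteric artery. Of the tested probe sets 1804 were called (10.8%), 846 higher in FBN (5.06%) and 958 lower (5.73%), and 4678 had an unadjusted p under 0.05. The called probe sets with 1 gene symbol stood for 566 genes higher and 718 lower, with 8 genes in both directions through different probe sets. Differences of at least 1 log2 unit numbered 78 higher and 121 lower. In 864 probe sets (5.17%) the signals of the groups did not overlap, with all FBN arrays above in 463 (2.77%) and below in 401 (2.4%), and 749 of these were called. The count depended on a few arrays. It fell to 1024 without FBN array 2, to 1062 without FBN array 4, to 1034 without BN array 5 and to 543 without FBN arrays 2 and 4, and it was 672 with the spike-in covariate, of which 440 were shared in direction with the full comparison. Across all 25 alternatives 314 probe sets kept their call wherever they were tested, 148 higher and 166 lower, for 83 and 110 genes. The results below lead with these.

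Several of the most clearly separated genes differed by the same sign in mesenteric artery at 15 months and in aorta at 6 months, which are other arrays. Others, such as Scd and Raph1, did not and are given further below. Trio, which encodes a large signalling protein, was 13.0-fold higher in FBN. Its FBN signals had a lowest, median and highest value of 2926, 3436 and 4342, against 227.2, 257.7 and 308.3 in BN. The log2 difference of 3.70 ± 0.14 (adjusted p = 1.07e-19, limma) stood beside 3.99 ± 0.14 at 15 months and 3.68 ± 0.24 in aorta. A second tested probe set of Trio, with mean signals of 4220 and 4335, differed by -0.03 (adjusted p = 0.858), so the difference held for 1 probe set and not for the gene as a whole. Echdc2, a mitochondrial protein of the enoyl-CoA hydratase family, read 765, 937.6 and 1373 in FBN and 39.6, 91.0 and 130.4 in BN, a difference of 3.56 ± 0.25, with 3.03 ± 0.25 at 15 months and 3.43 ± 0.40 in aorta. It was the only probe set tested for that gene. Its BN signals lay below 292.4, the level of the filter on low signals, and its difference ran from 2.53 to 3.69 over the alternatives. Msrb3, a methionine sulfoxide reductase that repairs oxidised proteins, read 2359, 3784 and 5755 against 430.5, 558.2 and 701.1, a difference of 2.70 ± 0.24. Its other tested probe set had means of 10450 and 10425 and a difference of -0.01 (adjusted p = 0.977). In both genes the strains did not overlap at 6 months in the probe set named first.

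Itga1 encodes the alpha 1 chain of a collagen-binding integrin that is abundant on vascular smooth muscle. Its signals were 4823, 7572 and 9620 in FBN and 1841, 2506 and 3226 in BN, a difference of 1.62 ± 0.20, and the lowest FBN array was above the highest BN array. Prps2, an enzyme of nucleotide synthesis, was higher by 1.58 ± 0.20, with 1.90 at 15 months and 1.73 in aorta, and 2 other tested probe sets of it were called in the same direction. Dmp1, an acidic matrix phosphoprotein known from bone and dentine, read 317.7, 353.8 and 377.8 in FBN and 41.2, 76.5 and 93.5 in BN. Its difference was 2.41 ± 0.30 here and 4.15 ± 0.53 in aorta, where the mean signal of FBN was 3268 ± 2356 (SD, n = 6), and the difference between the vessels had an adjusted p of 0.0874. The BN signals of Dmp1 here lay below 292.4, the level of the filter on low signals. Its call stayed with an offset of 100 before log2, but the difference was then 1.43. Higher in all 3 strain comparisons were also the helicase gene Rtel1 (1.20), Rufy1 of endosome traffic (0.86), Marveld1 (1.11), Trak2, an adaptor for mitochondrial transport (1.07), Fubp3 (1.33) and the mitochondrial ribosomal gene Mrpl52 (1.10). A second probe set was called in the same direction for Rtel1 (0.55) and Trak2 (0.29). It was not called for Fubp3 (-0.14, adjusted p = 0.451), Mrpl52 (-0.03, adjusted p = 0.877) and Marveld1 (0.20, adjusted p = 0.587). Lower in all 3 were Brcc3-ps7, listed as a pseudogene (-1.27), Cyp4v3, a fatty acid hydroxylase (-1.09), the kinase gene Rps6ka5 (-1.08), Ythdf2, a reader of methylated RNA (-0.95), and Dennd1b (-0.72). In these 5 the highest FBN signal lay below the lowest BN signal in the probe set named. A second probe set was not called for Ythdf2 (-0.07, adjusted p = 0.702), Rps6ka5 (-0.10, adjusted p = 0.555) and Dennd1b (-0.07, adjusted p = 0.758). The largest difference of all belonged to a probe set with no single gene symbol, singled out after its value was seen, at 5.70, with 4.87 at 15 months and 5.15 in aorta.

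At 15 months 522 probe sets were called (3.12%), 288 higher (1.72%) and 234 lower (1.4%), and in aorta at 6 months 2783 (16.6%), 1290 higher (7.72%) and 1493 lower (8.93%). Of the 1804 called in young mesenteric artery, 214 were called in the same direction at 15 months and 8 in the opposite one, which is 11.9% of the younger list and 41.0% of the older. In aorta 527 were called in the same direction and 26 in the opposite one, 29.2% of the mesenteric and 18.9% of the aortic list. Called there or not, 1060 of the 1804 (58.8%) had the same sign at 15 months and 1384 (76.7%) in aorta. Over all tested probe sets the correlation with the young mesenteric differences was 0.153 at 15 months and 0.353 in aorta. All 3 comparisons called 126 probe sets in 1 direction, 84 higher and 42 lower. Of the 314 that kept their call in every alternative, 129 were called in the same direction at 15 months, 156 in aorta and 96 in both.

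**Figure D2:**
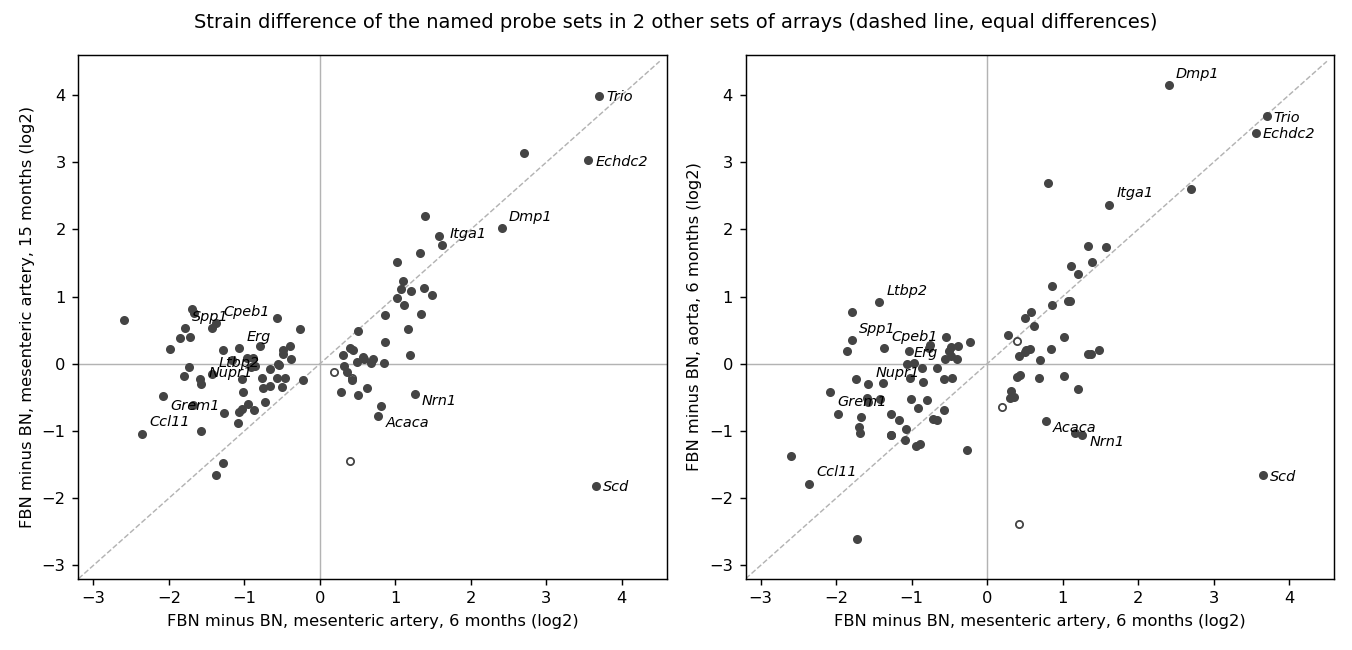
Strain difference (FBN minus BN, log2) of the named probe sets in mesenteric artery at 6 months on the x axis, against the same difference in mesenteric artery at 15 months (left) and in aorta at 6 months (right) on the y axis. In both panels filled points were called in mesenteric artery at 6 months, the comparison on the x axis, and open points were not. The fill does not show calls in the comparison on the y axis, and the dashed line marks equal differences. Trio, Echdc2 and Msrb3 lie near the line in both panels, while Scd is at 3.66 on the x axis and below 0 on both y axes.

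A fatty acid synthesis enzyme gave the largest change of the strain difference with age and with vessel among the named genes. Scd, the stearoyl-CoA desaturase that makes monounsaturated fatty acids, was 12.6-fold higher in FBN. The FBN signals were 2416, 5083 and 6094 (lowest, median, highest) and the BN signals 169.2, 348.2 and 748.5, with no overlap, a difference of 3.66 ± 0.61 (adjusted p = 0.000129, limma). At 15 months the sign was the other one, with mean signals of 976 ± 627 in FBN and 3278 ± 2451 in BN (SD, n = 6 each) and a difference of -1.82 (adjusted p = 0.1). In aorta at 6 months the means were 39792 ± 37071 and 66996 ± 6572 and the difference was -1.66 (adjusted p = 0.0415). The strain difference was more positive at 6 than at 15 months by 5.47 ± 0.86 (adjusted p = 0.000827). It was more positive in mesenteric artery than in aorta by 5.32 ± 0.85 (adjusted p = 0.000345). The call stayed without FBN arrays 2 and 4, at 3.50 (adjusted p = 0.00251), and with the spike-in covariate, at 4.69 (adjusted p = 1.48e-05).

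Acaca, the acetyl-CoA carboxylase that makes malonyl-CoA, the building block of fatty acid synthesis, was higher too, by a smaller amount. It read 4328, 4685 and 7384 in FBN and 2129, 2913 and 4199 in BN, a difference of 0.77 ± 0.16, against -0.78 ± 0.16 at 15 months (adjusted p = 0.00284), where FBN was lower. The strain difference changed by 1.55 ± 0.23 between the ages (adjusted p = 0.000689) and by 1.62 ± 0.45 between the vessels (adjusted p = 0.0324), and the groups at 6 months did not overlap. A second, dim probe set of Acaca differed by -0.05 (adjusted p = 0.922). Scd2, a second desaturase gene, was higher by 0.51 ± 0.16 (adjusted p = 0.0364), with overlapping signals of 8188 to 15592 and 5878 to 8340, and a second probe set had 0.01 (adjusted p = 0.989). The call was lost without FBN arrays 2 and 4 (0.37, adjusted p = 0.277), with the covariate (0.40, adjusted p = 0.264), with no filter and without any one of FBN arrays 1, 2 and 4 and BN arrays 2, 3 and 4. Fatty acid synthase, Fasn, had 0.54 (adjusted p = 0.14) at 6 months and -1.01 (adjusted p = 0.0118) at 15 months, and its strain difference changed by 1.55 between the ages (adjusted p = 0.0164). Acly, which supplies cytosolic acetyl-CoA, had 0.36 (adjusted p = 0.0594). Of the 13 tested members of the lipid synthesis list 3 were higher and 0 lower, against 5.06% and 5.73% of all tested probe sets, and their median difference was 0.11, against -0.02. The strain difference was more positive at 6 than at 15 months in 4 of the 13 and more positive in mesenteric artery than in aorta in 5. Of all tested probe sets 2.23% changed with age and 3.37% with vessel, in either direction. In aorta 6 of the 13 were lower in FBN and 0 higher, with a median of -0.85. At 15 months 2 were lower and 0 higher, with a median of -0.24. Of all tested probe sets 8.93% were lower in aorta and 1.4% at 15 months. In mesenteric artery at 6 months Srebf1, the transcription factor gene for this pathway, had 0.06 (adjusted p = 0.901). Me1 and Slc25a1 had -0.01 and -0.09 there. In cholesterol synthesis 1 of 13 tested genes was higher, Msmo1 (0.44 ± 0.12), against the same 5.06%, 0 were lower and the median was 0.22. That call was lost without FBN arrays 2 and 4 (adjusted p = 0.0637) and with the covariate (adjusted p = 0.256).

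White adipocyte markers were not called. Of 12 tested 0 were called, against 10.8% of all tested probe sets, and 11 had a negative difference, with a median of -0.44. Their summed signals were 60700 to 168000 in FBN and 140000 to 165000 in BN. FBN arrays 4 and 2, the small pieces, had the lowest sums, 60700 and 97400. The median was -0.16 without those arrays and 0.66 with the spike-in covariate, so the sign of this list was not settled.

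The start regions of both desaturase genes are shown because they lie close together and yet differed in the size of their strain difference. They run from 250 bases before to 50 bases after the gene start in RefSeq's GRCr8 assembly, 5′ to 3′ on the gene's strand, at chr1:253231682-253231981 (minus strand) for Scd and chr1:253118127-253118426 (plus strand) for Scd2. Capitals mark matches on either strand to the motifs searched, CCAAT (bound by NF-Y), TCACNCCAC (a sterol response element of SREBP), CACGTG (an E-box) and TATAAA.
Scd: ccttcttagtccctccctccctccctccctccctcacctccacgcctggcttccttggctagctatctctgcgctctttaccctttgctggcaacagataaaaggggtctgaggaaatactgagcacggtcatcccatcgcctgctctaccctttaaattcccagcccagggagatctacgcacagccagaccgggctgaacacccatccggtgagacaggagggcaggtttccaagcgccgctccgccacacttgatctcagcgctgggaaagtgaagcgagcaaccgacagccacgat
Scd2: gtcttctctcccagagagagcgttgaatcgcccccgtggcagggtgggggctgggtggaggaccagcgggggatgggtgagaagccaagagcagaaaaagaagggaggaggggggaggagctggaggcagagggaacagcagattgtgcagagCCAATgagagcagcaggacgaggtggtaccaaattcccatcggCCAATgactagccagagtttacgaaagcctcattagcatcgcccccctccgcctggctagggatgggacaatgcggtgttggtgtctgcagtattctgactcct
Scd had no match and Scd2 had 2 matches to CCAAT. Of 33469 promoters of the same length, 37.5% held CCAAT, 1.1% TCACNCCAC, 6.4% CACGTG and 14.2% TATAAA. Both sequences are of the reference genome and show no difference between the strains. Acaca was not matched.

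**Figure D3:**
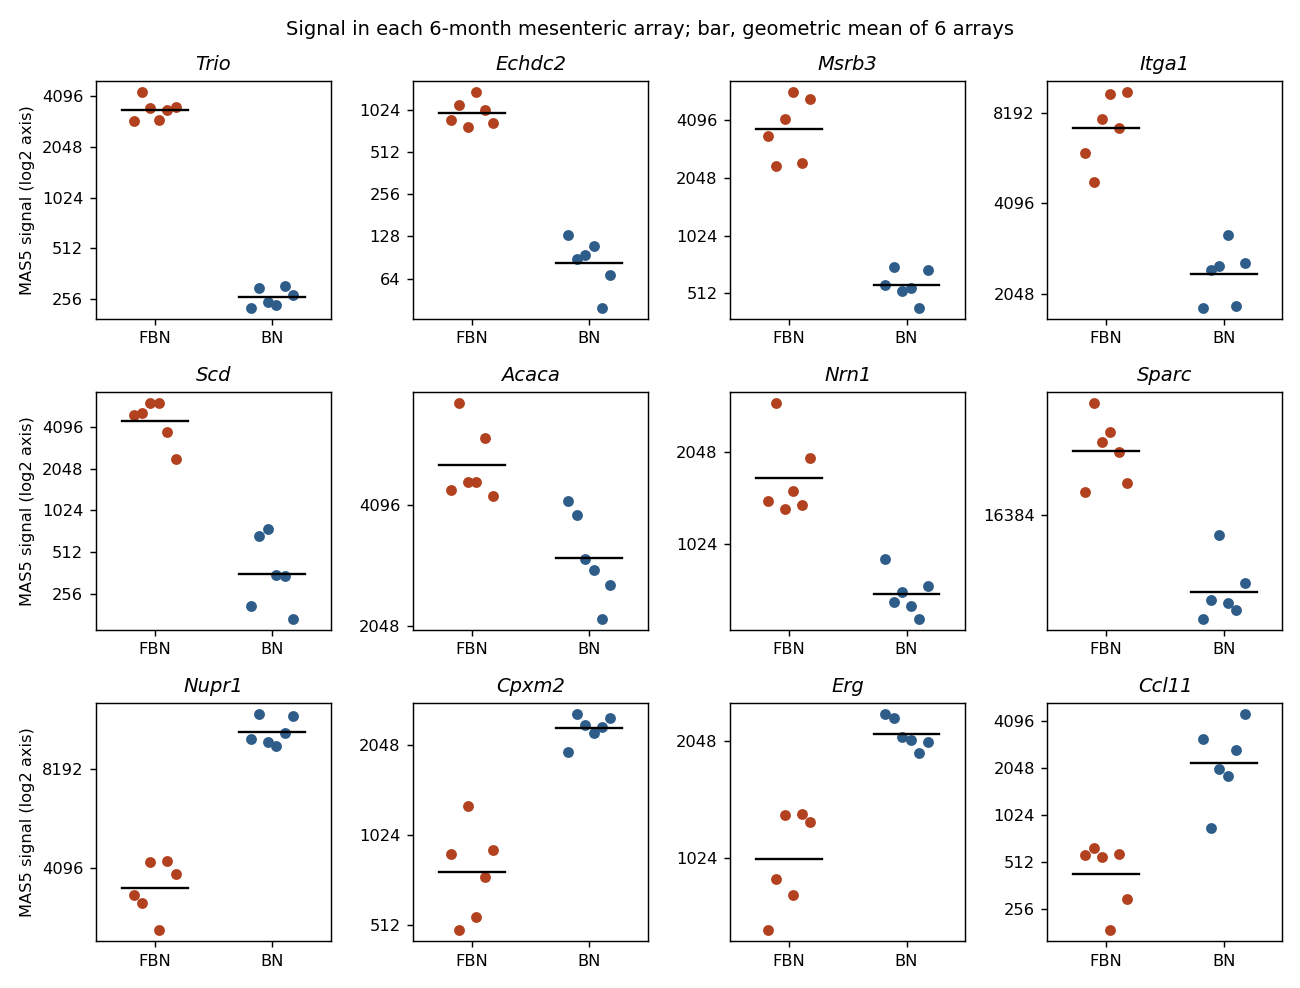
MAS5 signal (y axes, log2 scale) of 12 named genes in each of the 6 FBN and 6 BN mesenteric arrays at 6 months, each point 1 array and each bar the geometric mean. Trio, Echdc2, Msrb3, Itga1, Scd, Acaca, Nrn1 and Sparc are above in every FBN array, and Nupr1, Cpxm2, Erg and Ccl11 are below in every FBN array.

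Several further genes differed between the strains at 6 months and significantly less at 15 months, and kept their 6-month call in every alternative. Nupr1, a small nuclear protein induced by stress, read 2644, 3650 and 4284 in FBN and 9576, 10261 and 11990 in BN, a difference of -1.57 ± 0.15, and every FBN array was well below every BN array. At 15 months it was -0.31 (adjusted p = 0.297), and the change between the ages was -1.27 (adjusted p = 0.00149). Cpxm2, a secreted protein related to carboxypeptidases, was lower by 1.59 on the log2 scale, with signals up to 1283 in FBN and from 1939 in BN, and a second probe set was called at -1.30. Raph1, which binds Ras and phosphoinositides at the leading edge of migrating cells, was at -1.16 here and 0.05 at 15 months, and was lower in aorta too, at -0.83 (adjusted p = 0.0212). Cpeb1, which controls polyadenylation of messenger RNAs, was at -1.37 ± 0.22, with 224.5 to 341.4 in FBN and 520.6 to 913.1 in BN, and its strain difference differed from that at 15 months by -1.98 and from that in aorta by -1.60 (adjusted p = 0.000827 and 0.00387). Erg, a transcription factor of endothelial cells, read 667.9, 1087 and 1328 in FBN and 1906, 2076 and 2397 in BN, a difference of -1.07 ± 0.15. It had 0.24 at 15 months and 0.00 in aorta, and both differences between comparisons passed (adjusted p = 0.00167 and 0.0258). A second Erg probe set had -0.26 (adjusted p = 0.277). Uchl1, a deubiquitinating enzyme of neurons, was at -0.97, and the other 6 tested nerve and Schwann cell markers were not called. Over all tested probe sets 10.8% were called.

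Other genes were higher in FBN and kept their 6-month call in every alternative. Nrn1, neuritin, an extracellular protein first known for promoting neurite growth, read 1333, 1475 and 2950 in FBN and 584.5, 690.1 and 919 in BN, a difference of 1.26 ± 0.23. It was at -0.45 at 15 months and lower in FBN aorta, at -1.06 (adjusted p = 0.0196), and the strain difference changed by 1.71 between the ages and by 2.31 between the vessels (adjusted p = 0.00442 and 0.00043). Klhl32, of the kelch-like family, had 1.20 ± 0.19, with 408.4 to 760.4 in FBN and 148.6 to 300.5 in BN, and changed by 1.07 and 1.58 in the same tests. Nrep, a small protein tied to neuron regeneration, was higher by 0.62 here and had -0.36 (adjusted p = 0.0505) at 15 months. Afap1l2, an adaptor of Src signalling, was higher by 0.70, against 0.07 at 15 months and 0.05 in aorta. Basp1, a membrane protein of growth cones (1.48 ± 0.15), and Grifin, a galectin-related protein (1.39 ± 0.33), were higher at 15 months too, at 1.02 and 2.20, and the choline transporter gene Slc44a1 (1.33 ± 0.23) had 0.74 there (adjusted p = 0.0696). Further probe sets of Slc44a1 had 0.48 and 0.20 at 6 months (adjusted p = 0.0512 and 0.438). LOC102548586 had 1.17 here and -1.04 (adjusted p = 0.0678) in aorta, a difference between the vessels of 2.21. In these 8 genes the FBN and BN signals did not overlap at 6 months.

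The strain difference itself changed between 6 and 15 months in 372 probe sets, 173 toward higher FBN values at 6 months and 199 toward lower, a split that became 230 and 168 when all arrays were set to equal medians. Of the 1804 called at 6 months 241 were among them. In 239 of these the change had the sign of the 6-month difference, which their choice by a call at 6 months nearly fixes. Between mesenteric artery and aorta it changed in 563, 308 and 255, or 349 and 183 with equal medians, and 183 of the 1804 were among them. Both changes were called for 36 of the 1804. The count between ages fell to 129 without FBN array 2, to 131 without BN array 5 and to 53 without FBN arrays 2 and 4, and was as high as 859 without FBN array 6 of 15 months. That between vessels was 123 without FBN arrays 2 and 4, and it ran from 183 to 2462 when aorta arrays of FBN were left out 1 at a time. The rule also named genes whose 6-month difference was not itself called. Meg3, a long non-coding RNA of an imprinted region, had 0.39 at 6 months (adjusted p = 0.273) and was lower in FBN at 15 months, at -1.45. Iqgap2, a scaffold protein, had 0.42 (adjusted p = 0.225) and was lower in FBN aorta, at -2.39, and Cd48, a surface protein of leukocytes, had 0.19 (adjusted p = 0.246) and -0.64 in aorta. Pogz, Vwa8 and Psmb4 were called at 6 months by 0.28, -0.26 and -0.22, with overlapping signals, and each lost its call without FBN arrays 2 and 4. Pogz lost it also without any one of FBN arrays 2, 4 and 5 and BN arrays 2, 3 and 5, Vwa8 without any but FBN 5 or BN 1, and Psmb4 without any but FBN 3, 4 or 6 or BN 1.

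Of the proteins that act between cell and matrix, 2 went opposite ways. Sparc, which binds collagen and is made in remodelling tissue, was higher in both of its probe sets, with 18068, 21800 and 26277 in FBN against 10571, 11370 and 15073 in BN for the first. The differences were 0.86 ± 0.11 and 0.58 ± 0.11, with the calls kept in every alternative, and all FBN arrays were above all BN arrays in both. Tnc, tenascin C, an adhesion-modulating glycoprotein of injured or growing vessels, was lower, with 251.1, 494.3 and 869 in FBN against 1112, 1381 and 2229 in BN, a difference of -1.58 ± 0.31. Its adjusted p was 0.067 with the spike-in covariate. Spp1, osteopontin, was at -1.79 with overlapping signals, and lost its call without FBN arrays 2 and 4 (adjusted p = 0.0542) and with the covariate (adjusted p = 0.0635). Of 17 tested matricellular proteins and proteases 1 gene was higher and 2 lower, and of 24 collagen and elastic fibre genes 0 were higher and 3 lower, with medians of -0.10 and 0.05. Over all tested probe sets 5.06% were higher and 5.73% lower. Col8a1, a short-chain collagen of vessel walls, was lower by 0.87 on the log2 scale, with 1240 to 2826 in FBN and 3108 to 3901 in BN. It kept its call in every alternative, with differences from -1.3 to -0.745. Fn1, fibronectin, was at -0.67 ± 0.16 and Loxl2, a collagen cross-linking enzyme, at -0.66 ± 0.19, and both lost the call without FBN arrays 2 and 4 (adjusted p = 0.164 and 0.258) and with the covariate. A second Loxl2 probe set had -0.62 (adjusted p = 0.141). Loxl2 lost the call also without any one of FBN arrays 2 and 4 and BN arrays 3 and 5. The abundant fibrillar collagens and elastin were not called: Col1a1 had 0.29, Col3a1 0.26 and Eln 0.04.

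Genes around TGF-beta and BMP, growth factors that control matrix and smooth muscle, included 1 higher and 3 lower of 20 tested, against 5.06% and 5.73% of all tested probe sets, with a median of -0.07. Grem1, a secreted BMP antagonist, had the largest difference of these, with 367.4, 511 and 1153 in FBN and 1512, 2465 and 3507 in BN. The groups did not overlap, and the difference was -2.08 ± 0.39. Its call held in every alternative but the covariate (-1.24, adjusted p = 0.0705). Ltbp2, a latent TGF-beta binding protein of elastic fibres, was at -1.43 ± 0.37 and kept its call throughout, although the signals of 93.0 to 341.9 and 336.9 to 933.9 just met. Its strain difference was lower here than in aorta by 2.35 on the log2 scale. Ltbp1, its relative, was at -0.54, with FBN array 2 at 5354 far below the others, and the call was lost without that array, without BN array 6 and in 2 other alternatives. The ligand gene Tgfb2 was higher by 0.50 ± 0.13, and its adjusted p was 0.075 with the covariate. A second probe set had 0.04 (adjusted p = 0.881). Tgfb1, Tgfbr1 and Smad3 had -0.27, -0.10 and 0.06 and were not called.

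Endothelial markers tended to lower values but few passed. Of 13 tested 2 were lower, Erg and Vwf, 1 was higher, Esam, and 12 had a negative difference, with a median of -0.32. Over all tested probe sets 5.73% were lower and 5.06% higher. Vwf, the von Willebrand factor of endothelial granules, read 4872, 5300 and 8118 in FBN and 7506, 12014 and 14137 in BN, a difference of -1.03 ± 0.31, and the ranges overlapped by 1 array on each side. Esam, an endothelial junction protein, was at 0.40 ± 0.12. Both lost their calls without FBN arrays 2 and 4 (adjusted p = 0.132 and 0.268), with the covariate (adjusted p = 0.359 and 0.567), and without any one of FBN arrays 2 and 4 and BN arrays 5 and 6. Vwf lost it also without BN array 4, and Esam without FBN array 5 or BN array 3. Pecam1, Kdr and Nos3 had -0.21, -0.32 and -0.29 and were not called. The summed endothelial signals were 51100 to 67200 in FBN and 58100 to 80400 in BN, and the list's median was -0.25 without FBN arrays 2 and 4 and 0.03 with the covariate. Erg was lower in every alternative, as given above.

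Contractile smooth muscle markers went the other way in value, with 0 of 18 called, 14 positive and a median of 0.22 (0.13 without FBN arrays 2 and 4, -0.15 with the covariate). Des, Acta2 and Myh11 had 0.43, 0.42 and 0.28 (adjusted p = 0.0846, 0.123 and 0.108). Macrophage markers were negative in 14 of 14 tested, with none called and a median of -0.51, which became -0.19 with 11 negative without FBN arrays 2 and 4, and 0.56 with the covariate. Their summed signals were 15900 to 51900 in FBN and 30200 to 67600 in BN, with FBN array 4 lowest. Fibroblast markers had 0 of 12 called and a median of 0.08, and mesothelial markers 0 of 7 and 0.06, although 5 of those 7 were lower in FBN at 15 months. Over all tested probe sets 5.06% were higher and 5.73% lower at 6 months, and 1.4% were lower at 15 months. Cidea, a fat droplet protein in the brown adipocyte list, was lower at -0.80 and Ckm, the muscle creatine kinase, higher at 0.81. Both calls were lost without FBN arrays 2 and 4 (adjusted p = 0.404 and 0.0953), and with the covariate. Leaving out any one of FBN arrays 2 and 4 and BN arrays 2, 4 and 5 ended that of Cidea, and any one of FBN arrays 4, 5 and 6 and BN arrays 3, 5 and 6 that of Ckm.

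**Figure D4:**
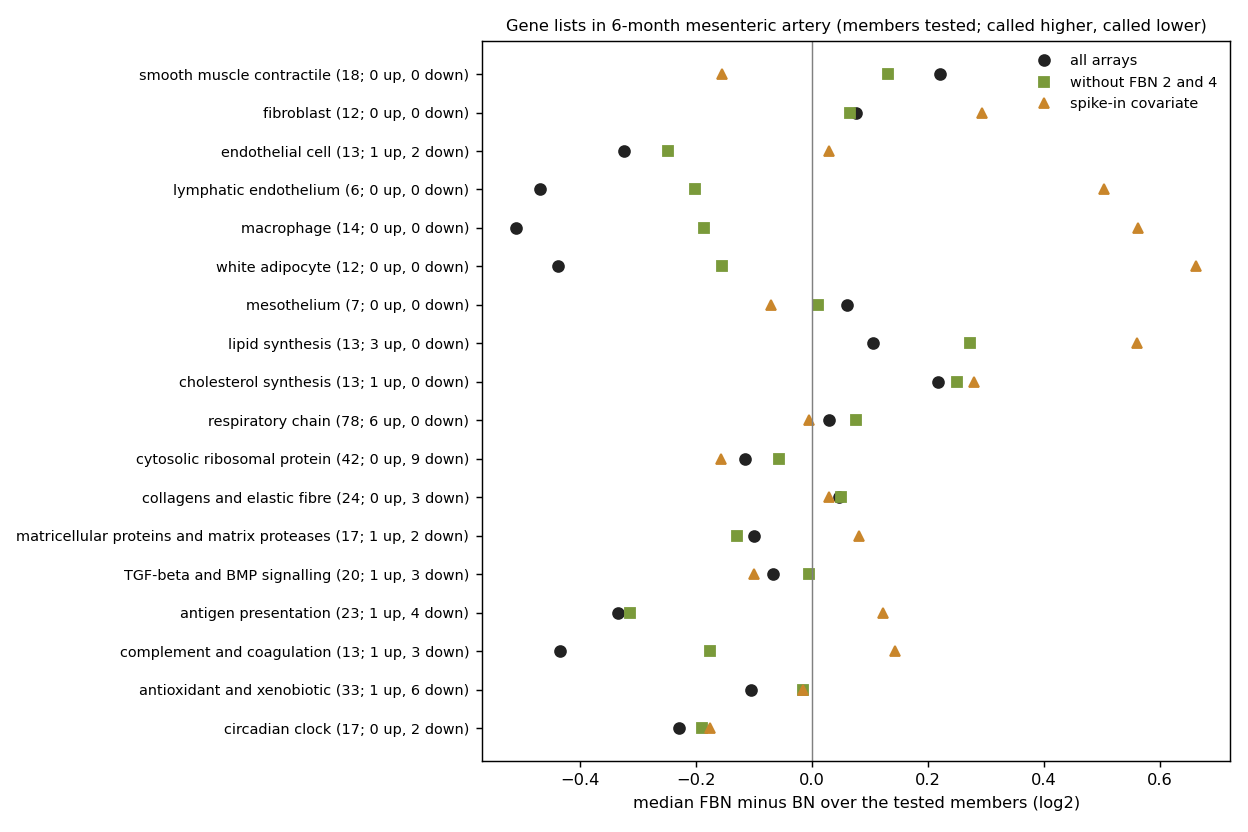
Median strain difference (FBN minus BN, log2, x axis) over the tested members of 18 gene lists in mesenteric artery at 6 months, with all 12 arrays, without FBN arrays 2 and 4, and with the mean spike-in signal of each array in the fit; labels give the numbers tested, called higher and called lower. The macrophage and white adipocyte medians are negative with all arrays (-0.51 and -0.44) and positive with the spike-in signal in the fit (0.56 and 0.66).

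Of 10 tested inflammation genes 0 were called, against 10.8% of all tested probe sets. The difference was negative in 8 of them, with a median of -0.35, or 0.195 with the covariate. Ccl11, eotaxin, a chemokine for eosinophils, had the largest fall among the named genes whose groups did not overlap, with 187.5, 558.7 and 629.5 in FBN and 848.6, 2336 and 4512 in BN, a difference of -2.36 ± 0.50. It was -2.20 (adjusted p = 0.0214) without FBN arrays 2 and 4 and lost its call with the covariate alone (-1.34, adjusted p = 0.155). Serpina3n, an acute-phase protease inhibitor, had -1.80 ± 0.60 (adjusted p = 0.0491), and its adjusted p was above 0.05 on leaving out any 1 array other than FBN 1 or 3. With the covariate the difference was 0.06. In antigen presentation 1 of 23 tested genes was higher and 4 lower, against 5.06% and 5.73% of all tested probe sets, with a median of -0.33. RT1-CE16, a class I major histocompatibility gene, was lower at -0.75 ± 0.15 and RT1-CE12, another, higher at 1.02 ± 0.27, neither with overlap. Class I genes of the rat are many and alike, so their probe sets may read each other's RNA. RT1-CE16 lost its call with the covariate (adjusted p = 0.0799) and RT1-CE12 with it, without FBN array 2 (2760, the highest) and without FBN arrays 2 and 4 (adjusted p = 0.122). For the class II gene RT1-Ba the probe sets disagreed. The dimmer was higher at 1.37 ± 0.37, with 1745 to 3598 in FBN and 714.5 to 1130 in BN. It kept its call in every alternative, with differences from 1.26 to 2.07. That probe set was not called at 15 months (1.13, adjusted p = 0.0907) or in aorta (0.14, adjusted p = 0.732). The brightest was lower at -1.28 ± 0.36, with 4605 to 8070 against 10303 to 19510, and another one was lower at -1.16 (adjusted p = 0.0268). The bright one lost its call without FBN arrays 2 and 4 (adjusted p = 0.122), with the covariate, and without FBN array 4 or BN array 5, but it was lower at 15 months too, at -1.48, and in aorta, at -1.06. Tap1, the peptide transporter of class I loading, was at -0.77 and lost its call without FBN array 4, whose 325.1 was the lowest, and in both alternatives.

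Of 20 tested interferon-stimulated genes 1 was higher, Herc6 (1.01 ± 0.33), and 1 lower, Parp9 (-0.47 ± 0.14), near the 5.06% and 5.73% of all tested probe sets. Both lost their calls without FBN arrays 2 and 4 (adjusted p = 0.237 and 0.239), with the covariate and without either of those arrays. Herc6 lost it also without FBN array 1 or 6 or BN array 2, 4, 5 or 6, and Parp9 without BN array 3 or 5. In complement and coagulation 3 of 13 were lower and 1 higher, against 5.73% and 5.06% of all tested probe sets, with a median of -0.43. C3, the central complement protein, read 123.2 to 407.7 in FBN and 455.1 to 1016 in BN, a difference of -1.38 ± 0.41, and was lower at 15 months as well, at -1.65 (adjusted p = 0.0159). Procr, the endothelial protein C receptor, was at -1.01, Serping1, the C1 inhibitor, at -0.85, and the protease gene Plau at 0.51, with -0.45 in a second probe set (adjusted p = 0.482). None of these 4 kept its call without FBN arrays 2 and 4 (adjusted p of 0.288 for C3, 0.136 for Procr, 0.395 for Serping1 and 0.0718 for Plau), and with the covariate only Plau did. C3 also lost it without FBN array 2 or 4 or BN array 5 or 6, Plau without FBN array 1 or 5 or BN array 2, 3 or 4, and Serping1 without any 1 array but FBN 1 or 3.

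Some ribosomal protein genes were lower, by small amounts. Of 42 tested cytosolic ribosomal proteins, counted without Rps6k kinases that share the name's start, 9 were lower and 0 higher, with a median of -0.12, against 5.73% of all tested probe sets called lower. Rpl14, of the large subunit, read 10556, 14169 and 15244 in FBN and 15825, 19218 and 20941 in BN, and all FBN arrays were below. Its difference was -0.48 ± 0.09, and with Rpl21 (-0.56 ± 0.11) and Rpl24 (-0.40 ± 0.08) it kept the call in every alternative. Rpl4 (-0.38) lost it without FBN arrays 2 and 4 (adjusted p = 0.194). Fbl, fibrillarin, the methyltransferase that modifies ribosomal RNA, was lower at -0.48 ± 0.08, with 1575 to 2154 against 2418 to 2883. It kept its call in every alternative, with differences from -0.518 to -0.414. The strain difference in Rpl14, Rpl21, Rpl24, Rpl4 and Fbl was lower than in aorta (by 0.73, 0.62, 0.47, 0.65 and 0.60 in size), and the list's median was 0.25 in aorta and -0.01 at 15 months. Of 78 tested respiratory chain genes 6 were higher and 0 lower, with a median of 0.03, a share near the 5.06% of all tested probe sets called higher. Ndufa7, a subunit of complex I, was at 0.68 ± 0.14 with no overlap (6762 to 11924 and 5029 to 6295), with a second probe set at 0.20 (adjusted p = 0.342), and Uqcrc1 of complex III at 0.36 ± 0.09. Ndufa3 and Ndufa9 had 0.32 and 0.31. None of the 6 was called with the covariate, and 4 genes of the list were called without FBN arrays 2 and 4, where Uqcrc1 and Ndufa3 were not (adjusted p = 0.117 and 0.192). Ndufa3 and Ndufa9 lost their calls without FBN array 4, and Ndufa3 without BN array 2 or 5.

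Antioxidant and detoxifying enzymes had 6 of 33 lower and 1 higher, against 5.73% and 5.06% of all tested probe sets, with a median of -0.11. None was called without FBN arrays 2 and 4 or with the covariate. Gstt1, a glutathione transferase, was at -0.57 ± 0.12 with no overlap (709.1 to 1301 and 1322 to 1739), Sod2, the mitochondrial superoxide dismutase, at -0.89 ± 0.21, and Ephx1, an epoxide hydrolase, at -0.57 ± 0.15. Ephx1 was higher in FBN at 15 months, at 0.67 (adjusted p = 0.00513), and the change between the ages was -1.24. It lost its call without BN array 5. Aldh1a1, which makes retinoic acid, was higher at 0.84 ± 0.19, with 3480 to 8207 in FBN and 2079 to 3208 in BN. Nox4, the oxidase subunit of vascular cells that makes hydrogen peroxide, was at -1.04 ± 0.32 in 1 of 6 tested NADPH oxidase genes, and lost its call without FBN array 2 or 5 or BN array 4, 5 or 6 and in both alternatives.

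Clock genes, which cycle through the day, leaned in 2 directions. Called lower were Nr1d2, a repressor of the clock loop, in both probe sets (-1.67 ± 0.35 and -1.43 ± 0.36), and Rora, which opposes it (-0.91 ± 0.21), 2 of 17 genes, with a list median of -0.23. Over all tested probe sets 5.73% were called lower. Nr1d2 in its first probe set ranged from 321.6 to 2680 in FBN and from 2241 to 4712 in BN. Nr1d1, Dbp and Per3, genes of the same phase, had -1.75, -1.59 and -1.07 (adjusted p = 0.0706, 0.124 and 0.108). Npas2, Cry1 and Bmal1 had 0.79, 0.72 and 0.54 and were not called either. At 15 months 0 of the 17 were called, against 3.12% of all tested probe sets. The first Nr1d2 probe set had 0.76 (adjusted p = 0.272), Nr1d1, Dbp and Per3 had 1.34, 1.41 and 0.68 (adjusted p = 0.294, 0.303 and 0.46) and Rora -0.05 (adjusted p = 0.939). The change between the ages was called for Nr1d2 (-2.43 and -1.95). Without FBN arrays 2 and 4 the first Nr1d2 probe set had -1.15 (adjusted p = 0.048), while its second probe set and Rora were not called (adjusted p = 0.168 and 0.089). With the covariate none was. The labels give no time of day for any sample.

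Among the remaining genes named for size, several had very low signals on a few FBN arrays. Angptl8, a secreted regulator of lipoprotein lipase, read 21.3, 122.4 and 610.5 in FBN and 524.3, 662.8 and 831.8 in BN, a difference of -2.59 ± 0.78. It lost its call without FBN array 2 or 4 or BN array 3 or 5, without FBN arrays 2 and 4 (-1.45, adjusted p = 0.383) and with the covariate (-0.36). Ubxn4, Ubr4, Nsrp1, Osbpl1a and Hsdl2 had -1.98, -1.73, -1.85, -1.70 and -1.72, with lowest FBN signals of 5.7, 15.8, 12.9, 17.7 and 190.7 and overlapping groups. None of these 5 kept its call without FBN arrays 2 and 4 (adjusted p from 0.174 to 0.267) or with the covariate. Leaving out 1 array also ended the calls of Ubxn4 (FBN 2 or 4, BN 5 or 6), Ubr4 (FBN 1 or 4, BN 3 or 5), Hsdl2 (FBN 2 or 4, BN 5 or 6) and Osbpl1a (FBN 2). Further probe sets of Ubxn4 were called lower, at -0.37 (adjusted p = 0.00823) and -0.65 (adjusted p = 0.0474), and 1 of Nsrp1 at -1.21 (adjusted p = 0.0484), beside 1 at 0.01. Those of Ubr4 and Hsdl2, at -0.23 and -0.26, and of Osbpl1a, at -0.27 and 0.09, were not called. Mga, a transcription factor that pairs with Max, was at -1.69 ± 0.32, with 79.2 to 289.2 in FBN and 272.4 to 734.1 in BN. That probe set was called in every alternative, but a second one had the opposite sign and was not called (0.40, adjusted p = 0.171). Top2a and Mcm6, genes of dividing cells, were lower at -1.28 and -0.51, 2 of 8 tested cell cycle genes, against 5.73% of all. Notch3, a receptor of smooth muscle, and Stim1, a calcium sensor, were higher at 0.57 and 0.42. Further Stim1 probe sets had 0.14 and -1.46 (adjusted p = 0.523 and 0.112). Top2a, Mcm6, Notch3 and the first Stim1 probe set lost their calls without FBN arrays 2 and 4 (adjusted p of 0.151, 0.38, 0.139 and 0.0969) and with the covariate. Top2a and Mcm6 lost them also without any one of FBN arrays 1, 2 and 4 and BN arrays 3, 5 and 6, Top2a without FBN array 5, Mcm6 without BN array 1, and Notch3 without FBN array 4 or BN array 2, 3, 5 or 6.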

How the data were processed

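RNA of 71 rat arteries, 36 mesenteric and 35 aortic, had been measured on Affymetrix arrays after column purification and biotin labelling, per the labels' protocols. The deposited values are intensity, MAS5 signals on a linear scale for 31099 probe sets, made by the authors with GCOS and MAS5 per the submitters' processing notes, with versions not given in the sources used here. Every array had a mean of 1000.3 to 1000.4 after trimming 2% at each end, so all had been scaled alike, and an array-wide shift in RNA would not show. Detection calls and scan dates were not used here.

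Signals were log2-transformed with no offset, 57 control probe sets were set aside, and 16717 probe sets were tested whose mean log2 signal over the aorta or the mesenteric arrays reached 8.192 (signal 292.4), the median over probe sets. The platform annotation gave 1 symbol for 12889 of those tested (9785 genes). limma 3.58.1 (R 4.3.3) fitted the 36 mesenteric arrays, or the 35 aorta arrays, as 6 group means, and all 71 as 12 for differences between vessels, with eBayes trend and robust estimates and Benjamini-Hochberg adjustment over all tested probe sets. The 24-month arrays entered only the estimate of spread. Of 47 probe sets called at 6 and 15 months in 1 direction by at least 1 log2 unit, 47 had the opposite sign in mesenteric arrays as labelled at 24 months. The scripts were tested on simulated data.

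The members, gene lists and alternatives were chosen with earlier results of these data known. The rule named, in each direction, the 12 called genes with 1 symbol and the largest difference and then 8 with the smallest p, up to 4 called members of each of 38 lists, and the 5 in each direction with the smallest p in the tests between ages and between vessels. A gene entered a list by its tested probe set of highest mean signal, and 7 lists had under 4 tested members. Leaving out FBN arrays 2 and 4 was added after the data were seen.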

Additional observations from a re-analysis of the deposited data

Results flagged for a closer look

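The strain difference at 6 months differed from that at 15 months, by limma's test of the difference itself, in 27 named probe sets. Many of these genes were named for that test or for the size of their 6-month difference, so the number is no share of all genes. The strain difference was larger in the positive direction at 6 months, in log2 units, for the lipid genes Scd (5.47), Acaca (1.55) and Scd2 (0.972), for Nrn1 (1.71), Nrep (0.98), Klhl32 (1.07) and Afap1l2 (0.636), for Meg3 (1.85), Ckm (1.44) and Pogz (0.704), and for Stim1 (0.665) and Uqcrc1 (0.479). It was larger in the negative direction for both probe sets of the clock gene Nr1d2 (-2.43 and -1.95), for Spp1 (-2.32), Osbpl1a (-2.51) and Cpeb1 (-1.98), and for Nupr1 (-1.27), Cpxm2 (-1.36), Erg (-1.31), Raph1 (-1.22), Uchl1 (-1.05) and Ephx1 (-1.24). Smaller changes of that sign were seen in Rpl14 (-0.681), Rpl24 (-0.662), Fbl (-0.633) and Vwa8 (-0.775).

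Between mesenteric artery and aorta at 6 months the strain difference differed in 23 named probe sets. It was more positive in mesenteric artery for Scd (5.32), Acaca (1.62), Nrn1 (2.31), Klhl32 (1.58), LOC102548586 (2.21), Iqgap2 (2.81), RT1-CE12 (1.21), Ndufa7 (0.896) and Cd48 (0.831). It was more negative for Serpina3n (-2.57), Ltbp2 (-2.35), Spp1 (-2.14), Nsrp1 (-2.04), Cpeb1 (-1.6), Erg (-1.07), RT1-CE16 (-1.03) and Tap1 (-1.01). Ribosomal genes were also more negative, Rpl14 (-0.732), Rpl4 (-0.645), Rpl21 (-0.623) and Rpl24 (-0.468), with Fbl (-0.601) and the proteasome gene Psmb4 (-0.551).

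Of 206 groups of 6 array values checked, 12 held 1 value that stood far from the other 5 by Dixon's test, which chance does in about 1 group in 20. In FBN these were 5 values of array 2, namely Ubxn4 (5.685), Ythdf2 (1069), Ltbp1 (5354), RT1-CE12 (2760) and Meg3 (1182), then Tap1 (325.1) in array 4, and Vwf (8118) and Herc6 (229.2) in array 5. In BN they were Vwf (7506) in array 2, Vwa8 (1580) in array 4, Ythdf2 (2889) in array 5 and Rufy1 (1017) in array 6.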

How the results depend on the processing

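The number of probe sets called between the strains at 6 months, 1804, was 1120 with a stricter filter on low signals, 672 with the spike-in covariate and 543 without FBN arrays 2 and 4. It ran from 1024 to 2461 when each array was left out in turn, lowest without FBN array 2 and highest without FBN array 3, and was 1500 without the 24-month arrays in the fit. At 15 months the count of 522 was 221 with the stricter filter, 1108 with array weights, 316 with only the compared groups in the fit and 1119 with the spike-in covariate. For the difference between ages the count of 372 was 195 with no filter, 165 with only the compared groups or without the 24-month arrays, which is the same fit, 155 with the covariate and 53 without FBN arrays 2 and 4, and 129 to 859 with 1 array left out. In aorta the count of 2783 was 9210 with array weights, 348 with only the compared groups, 1441 without the 24-month arrays, 1205 with tissue mass and 298 with the spike-in signal as covariate, and 1101 to 6009 with 1 array left out. For the difference between vessels the count of 563 was 302 with no filter, 7315 with array weights, 75 with only the compared groups, 271 without the 24-month arrays, 198 with tissue mass and 1198 with the spike-in signal as covariate, and 123 without FBN arrays 2 and 4, with 183 to 2462 when 1 array was left out. The causes of these moves were not tested, except that filters and left-out arrays change how many probe sets and arrays are fitted.

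The Serpina3n difference of -1.80 was 0.06 (0.0571) with the spike-in covariate. The spike-in difference of 1.75 ran from 1.51 to 1.91 with 1 array left out, and that of tissue mass from -0.653 to 0.647 mg around -0.0167 mg. Of 94 named probe sets that were called, 43 kept the call in every alternative and 51 lost it in at least 1, 48 of them with the spike-in covariate and 31 on leaving out 1 array. Quantile normalization ended 1 of these calls, equal array medians 2 and an offset of 100 before the log2 none, while a fit of only the compared groups ended 17. No paired analysis was possible because the array numbers follow the order of deposition and the labels do not tie arrays of different groups. With 6 arrays a group and no detection calls, differences between low signals are the least certain.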

Other observations

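Further probe sets kept their 6-month call in every alternative and were singled out after the values were seen. Where a gene below had other tested probe sets, their differences had the same sign. A shared sign does not show that those others were called or differed by a like amount. Bmpr2, the type II receptor for bone morphogenetic proteins, was lower in FBN by 1.17 on the log2 scale (adjusted p = 2.58e-05, limma), with -0.23 at 15 months and -0.15 in aorta, where it was not called. Acvr1, a type I receptor of the same family, had -0.40 (adjusted p = 0.0159), with -0.17 at 15 months and 0.37 in aorta, neither called. Comp, a cartilage matrix protein also made by arteries, had -0.87, with 0.24 at 15 months and 1.33 in aorta (adjusted p = 0.575 and 0.0613). Abca1, the transporter that exports cholesterol from cells, had -1.03, with -0.60 at 15 months (adjusted p = 0.142) and -1.30 in aorta (adjusted p = 0.00255).

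Trpv2, a cation channel that responds to stretch, was lower by 0.95 on the log2 scale, with -0.19 at 15 months (adjusted p = 0.654) and -1.09 in aorta (adjusted p = 0.0228). Slc2a4, the insulin-regulated glucose transporter, was higher by 0.69 here, with -0.26 at 15 months (adjusted p = 0.33), and lower in FBN aorta (-0.74, adjusted p = 0.0428). Pde4a, a phosphodiesterase of cyclic AMP, was higher by 0.87, with 0.50 and 0.01 in the other comparisons (adjusted p = 0.117 and 0.985). Ldb3, a protein of muscle Z-discs, was higher by 0.97 here and 0.99 at 15 months, with 0.59 in aorta (adjusted p = 0.119).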
